A study of Arabidopsis thaliana with 6 samples.

Results

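The nuclear auxin response was examined through 50 genes of Arabidopsis thaliana, chosen by locus identifier: 29 Aux/IAA repressor genes, 15 genes for auxin response factors (ARF1 to ARF11 and ARF16 to ARF19) and the 6 genes for the receptors TIR1 and AFB1 to AFB5. All 50 were among the 38064 genes with a row in the deposited count table. RNA sequencing compared 2 genotypes, 3 libraries each, from seedlings kept in darkness at 22 degrees on half-strength medium until they were 5 days old. The control group was the Col-0 wild type, and the other group was bdh1-1 bdh2-1, called bdh here, a line with mutant alleles of both BCL-DOMAIN HOMOLOG genes. The title of the series ties their products to the stability of the SWI/SNF chromatin remodelling complex, and its stated purpose was to learn what lies behind the phenotype of dark-grown mutants. The sample labels give whole seedlings and the design text hypocotyls, so which material was taken cannot be told from them.

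Auxin binds in a pocket formed by a TIR1/AFB F-box protein and the degron of an Aux/IAA protein, which leads to the ubiquitination and destruction of the Aux/IAA. Aux/IAA proteins otherwise hold ARF transcription factors inactive by bringing in corepressors of the TOPLESS family. Many Aux/IAA genes are themselves induced by auxin through ARFs that bind TGTC-containing elements, which makes the pathway a feedback loop. In dark-grown seedlings auxin is known for its part in hypocotyl elongation and in keeping the apical hook closed.

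Small RNAs limit several of these transcripts. Pairing is shown for TAS3A because its targets ARF2 and ARF4 differed between the genotypes. For miR160 it is shown because the locus MIR160C differed, although the targets shown were not called in the edgeR test. A 21-base stretch of the TAS3A transcript, from which trans-acting small RNAs against ARF genes are made, lies at chr3:5862205-5862225 (plus strand; coordinates and sequences from the RefSeq genome and annotation, build TAIR10.1). Its best complementary stretches lie in the coding sequence of ARF2 (chr5:24913262-24913282, plus strand), ARF3 (chr2:14325941-14325961, minus strand) and ARF4 (chr5:24309507-24309527, minus strand). The TAS3A stretch was picked for the fewest mismatches to these ARF genes, not from an annotated small RNA. No other transcripts were searched, so close pairing was set by the choice. Each line reads 5′ to 3′, and capitals mark bases of the target that do not form a Watson-Crick pair with the TAS3A stretch.
TAS3A: tttcttgaccttgtaagaccc
ARF2: gggtcttGcaaggtcaagaaT
ARF3: gggtcttGcaaggtcaagaaa
ARF4: gggtcttGcaaggtcaagaaa
The ARF3 and ARF4 stretches were identical, with 1 mismatch each, and ARF2 had 2 mismatches. ARF3 and ARF4 each held 2 stretches with at most 4 mismatches, and ARF2 held 1.

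The microRNA miR160 targets the class C genes ARF10, ARF16 and ARF17. The mature sequence annotated as miR160b and those of the 5p arms of MIR160A and MIR160C were the same, and the seed (bases 2 to 8) is in capitals in its line. In the 3 target lines capitals mark mismatches to the microRNA. The sites lie in coding sequence at chr2:12115741-12115761 (plus strand), chr4:14704141-14704161 (minus strand) and chr1:29274189-29274209 (plus strand).
miR160: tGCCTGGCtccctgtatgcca
ARF10: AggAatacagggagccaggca
ARF16: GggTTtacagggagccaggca
ARF17: tggcatGcagggagccaggca
ARF17 paired with 1 mismatch, ARF10 with 2 and ARF16 with 3.

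The degron is shown because IAA7, IAA14, IAA16 and IAA17 share a clade, of which only IAA14 was called, and the degron is what the receptors bind. The lines give 30 bases of reference coding sequence around the Gly-Trp-Pro-Pro core, whose codons are in capitals. They lie at chr3:8195568-8195597 (plus strand), chr4:8349478-8349507 (minus strand), chr3:1289730-1289759 (minus strand) and chr1:1136938-1136967 (plus strand).
IAA7: caagtggtgGGATGGCCACCTgtgaggaac
IAA14: caagtggtgGGTTGGCCACCGgtgaggaac
IAA16: caagttgtgGGATGGCCACCGgtacgatct
IAA17: caagttgtgGGATGGCCACCGgtgagatca
The core was found in 23 of the 29 Aux/IAA genes. It was absent from IAA20, IAA30, IAA31, IAA32, IAA33 and IAA34.

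Library totals ran from 40876788 to 44982000 counts, so a level of 1 CPM (counts scaled to library size with TMM factors) stood for 42.04 to 46.12 counts. Values of the 3 libraries of a group are given in the order of replicates 1, 2 and 3. The loci AT4G22320 and AT5G55210, assigned to the BDH genes from memory of the literature because neither the files nor the annotation pairs them, had 143 to 755 counts in the wild-type libraries and 7 to 22 in the bdh libraries. The root marker list (9 genes, 0 called) summed to 154 to 220 CPM in the wild type and 191 to 264 CPM in bdh. Nearly all of it was CASP1, without which the sums were 2.82 to 5.42 and 4.50 to 4.74 CPM. CASP1 overlaps AT2G36090 on the opposite strand, and how much of its level comes from that gene was not tested. The protochlorophyllide reductase genes PORA and PORB, marks of the dark-grown state, had log2 fold changes of 0.78 each, and the summed level of both was 1110 to 1300 CPM in the wild type and 1570 to 2580 CPM in bdh. Of the light-induced genes, ELIP1 was also called higher (0.65, edgeR adjusted p 0.0197) and ELIP2 was not (0.05). The wild-type libraries differed from one another in the 3 seed storage genes, which were all called lower in bdh. These genes summed to 0.442 to 89.2 CPM in the wild type and 0.547 to 1.71 CPM in bdh. The groups overlapped for each of them, since wild-type replicate 1 had only 2 to 14 counts, beside 4 to 36 in bdh. Of the shoot apex markers, STM rose 2.60-fold, KNAT1 fell by 0.30 on the log2 scale, and CLV3 had at most 12 counts in any library. Their part in the differences below was not tested. The labels do not say that the libraries came from separate cultures, so p-values measure the spread between these samples, which may be technical.

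Few of the 50 genes were called as different between the genotypes with edgeR. DESeq2 on the same counts called 11 members, beside 25.1% of the genes it tested, so the number depended on the tool. In edgeR's quasi-likelihood test with an adjusted p under 0.05 over all 20791 tested genes, 5 of the 47 tested members were called (10.6%), beside 23.5% of all tested genes. The 1 called higher in bdh was ARF4, beside a background of 12.1% called higher. The 4 called lower were IAA14, ARF2, ARF9 and ARF11, beside 11.3%. The receptors had 0 of 6 called, the Aux/IAA genes 1 of 26 and the ARF genes 4 of 15. IAA15, IAA31 and IAA33 had at most 6 counts in any library and were not tested. The groups did not overlap for 15 members (31.9% of those tested), beside 41.3% of all tested genes. For 12 members bdh was lower, beside 20.5% of all tested genes, and for 3 it was higher, beside 20.8%. In RNA from whole seedlings or hypocotyls, fewer cells of a type and less RNA per cell cannot be told apart.

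**Figure D1:**
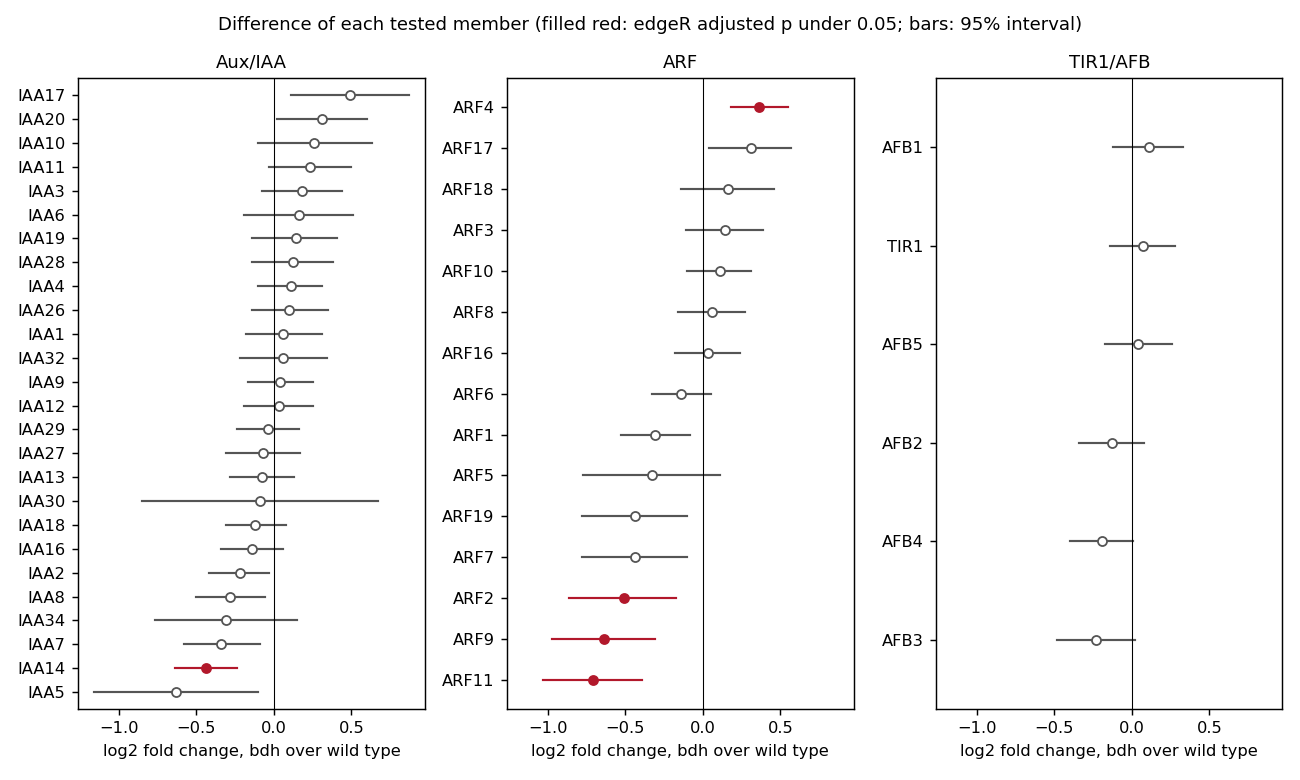
Log2 fold change (bdh over wild type) of each tested member by family, with its 95% interval; filled points mark adjusted p under 0.05. The 5 called members are IAA14, ARF2, ARF9 and ARF11 below 0 and ARF4 above 0, and the 6 receptor genes lie between -0.23 and 0.11.

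The receptor genes did not differ detectably. TIR1, the founding auxin receptor, had 248, 262 and 239 CPM in the wild type and 282, 243 and 261 CPM in bdh. The groups overlapped, with a log2 fold change of 0.07 (SE 0.09, 95% interval -0.14 to 0.28). AFB2, a close relative of TIR1, had 139, 142 and 135 CPM against 137, 116 and 127 CPM, again with overlap, and a log2 fold change of -0.13 (95% interval -0.34 to 0.08). AFB3, which like AFB2 is a target of miR393, had 37.6, 36.8 and 39.4 CPM in the wild type and 32.7, 36.8 and 27.4 CPM in bdh. Its lowest library was bdh replicate 3, and bdh replicate 2 lay at the level of the wild type. The log2 fold change of AFB3 was -0.23 (95% interval -0.48 to 0.02), and AFB3 overlaps genes on the opposite strand.

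AFB4 and AFB5 form a separate pair, known for their role in the response to picloram. AFB4 had 24.7, 24.0 and 24.0 CPM in the wild type and 22.4, 19.6 and 21.8 CPM in bdh. All 3 bdh libraries lay below the wild type, but the log2 fold change of -0.19 (95% interval -0.40 to 0.01) had an edgeR adjusted p of 0.154. AFB5 had 94.8, 107 and 97.5 CPM against 108, 93.1 and 108 CPM, with overlap and a log2 fold change of 0.04 (95% interval -0.17 to 0.26). AFB1, which acts mainly in rapid responses in the cytoplasm, ran from 65.0 to 75.8 CPM in the wild type and from 67.2 to 79.1 CPM in bdh. The family sum came to 620 ± 24.5 CPM in wild-type libraries and 620 ± 42.7 CPM in bdh libraries (SD, n = 3 each), and 0 of the 6 genes had an unadjusted p under 0.05, beside 38.7% of all tested genes. The 95% interval of each of the 6 lay inside a 1.5-fold change in either direction.

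Levels of different genes were compared as CPM per kilobase of exonic length. In the wild type, TIR1 led the receptors at 94.3 ± 4.25 CPM per kilobase (SD, n = 3), followed by AFB2 at 50.7 ± 1.40, AFB5 at 39.5 ± 2.54, AFB1 at 29.8 ± 2.46, AFB3 at 17 ± 0.611 and AFB4 at 8.32 ± 0.135. The wild-type libraries of neighbours in this order did not overlap at any step. The top 3 of the 6 receptor genes held 77.0% of their family's summed level per kilobase. The share was 51.4% for the top 3 of 15 ARF genes and 43.1% for the top 3 of 29 Aux/IAA genes. These shares depend on family size. The highest gene stood at 2.72 times the family median for the receptors, 6.64 times for the ARF genes and 23.0 times for the Aux/IAA genes.

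**Figure D2:**
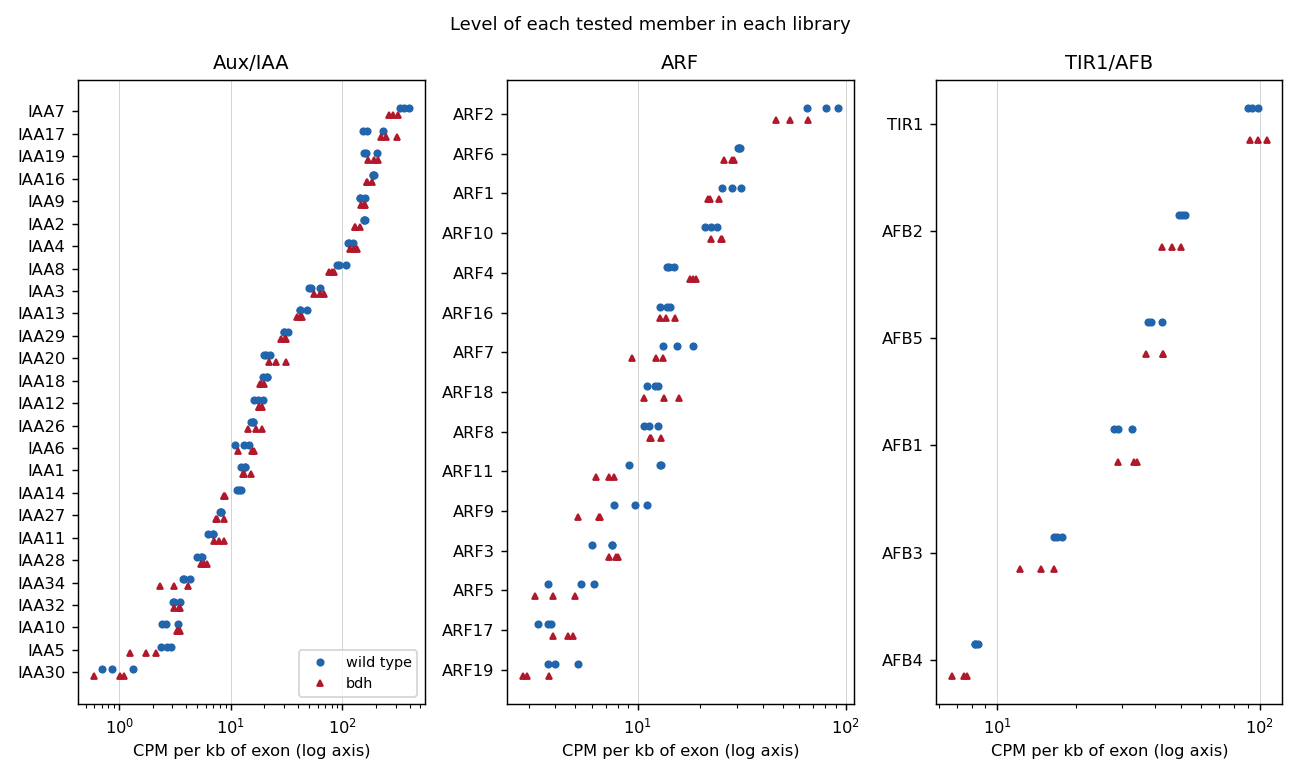
Level of each tested member in CPM per kilobase of exonic length (log axis), ordered by mean within its family, with 1 circle for each wild-type and 1 triangle for each bdh library. IAA7, ARF2 and TIR1 lead their families, and the spread between genes is far wider than that between genotypes.

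Among the Aux/IAA repressors, IAA14 was the only one called. IAA14 (AT4G14550, chr4:8347822-8350263, minus strand), known as SOLITARY-ROOT for its role in lateral root formation, had 1007, 1024 and 994 counts in the wild type and 720, 696 and 705 counts in bdh. The libraries of each group lay close together and the groups were far apart, at 22.3 ± 0.792 CPM in the wild type and 16.4 ± 0.123 CPM in bdh (SD, n = 3 each). IAA14 fell by 0.44 on the log2 scale (SE 0.09, edgeR adjusted p 0.00833). Without bdh replicate 1 the size was the same but the adjusted p was 0.0517. With offsets that remove each library's trend with transcript length, the log2 fold change was -0.45 (edgeR adjusted p 0.00660).

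The clade relatives of IAA14 were not called, with log2 fold changes on both sides of 0. IAA7 (AXR2), the most abundant Aux/IAA transcript at 360 ± 32.2 CPM per kilobase in the wild type (SD, n = 3), had 685, 751 and 628 CPM in the wild type and 542, 498 and 595 CPM in bdh. The groups did not overlap, but the log2 fold change of -0.34 (SE 0.11) had an edgeR adjusted p of 0.0525. IAA17 (AXR3), second in mean level per kilobase over all 6 libraries and close to IAA16 in the wild type (184 ± 42.2 and 190 ± 2.54 CPM per kilobase, SD, n = 3 each), had 203, 306 and 219 CPM against 324, 294 and 405 CPM. Wild-type replicate 2 lay within the bdh values, and the log2 fold change was 0.49 (SE 0.17, edgeR adjusted p 0.0596). Without wild-type replicate 2 it was 0.70 with an adjusted p of 0.00747, and without bdh replicate 2 it was 0.59 with an adjusted p of 0.0399. IAA16 had 381 to 391 CPM in the wild type and 337 to 373 CPM in bdh, without overlap, with a log2 fold change of -0.14 (edgeR adjusted p 0.284).

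As a description of this pair, chosen after its values were seen, the log2 ratio of IAA17 to IAA7 in CPM was -1.75, -1.29 and -1.52 in the wild-type libraries. In the bdh libraries it was -0.74, -0.76 and -0.55. IAA17 thus stayed below IAA7 in every library, and nearer to it in every bdh library.

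The auxin- and light-responsive clade of IAA5, IAA6 and IAA19 held the largest fold difference of the family and no call. IAA5 had 102, 92 and 86 counts in the wild type and 43, 57 and 72 counts in bdh. Every bdh library was lower, the log2 fold change was -0.63 (SE 0.24, 95% interval -1.16 to -0.10), and the edgeR adjusted p was 0.0795. With length offsets the log2 fold change of IAA5 was -0.84 with an edgeR adjusted p of 0.0317, and IAA5 overlaps AT1G15570 on the opposite strand. IAA19 (MSG2), which takes part in hypocotyl tropism, had 158, 206 and 163 CPM in the wild type and 194, 173 and 212 CPM in bdh, with overlapping groups. Its log2 fold change was 0.14 (SE 0.12, edgeR adjusted p 0.447), and -0.03 with length offsets. IAA6 ran from 9.27 to 12.6 CPM and from 9.91 to 13.7 CPM (log2 fold change 0.16).

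Of the remaining Aux/IAA genes 0 were called. IAA2 (-0.22, edgeR adjusted p 0.0896) and IAA8 (-0.28, 0.0654) were lower in bdh without overlap, and IAA2 passed the threshold with length offsets (-0.33, 0.0332). IAA11 was higher without overlap (0.23, 0.182). IAA20, which lacks the degron core, had a log2 fold change of 0.31 (edgeR adjusted p 0.105), with 20.6, 19.8 and 22.0 CPM in the wild type and 24.9, 30.9 and 21.7 CPM in bdh. IAA3 and IAA4, a closely related pair, had log2 fold changes of 0.18 and 0.11, IAA10 and IAA11 of 0.26 and 0.23, and IAA12 (BODENLOS) and IAA13 of 0.03 and -0.08. Over the 26 tested Aux/IAA genes the median log2 fold change was 0.04, beside 0.00 for all tested genes, and 7 had an unadjusted p under 0.05, again beside 38.7%. IAA34 had a log2 fold change of -0.31 (95% interval -0.77 to 0.15), and -0.49 with length offsets, and overlaps a gene on the same strand. IAA30, with 26 to 60 counts, had the widest interval, from -0.85 to 0.67 around -0.09. The summed level was 2800 ± 187 CPM in the wild type and 2700 ± 168 CPM in bdh (SD, n = 3 each).

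The 22 tested Aux/IAA genes with the degron core had a median of 0.04 with 1 call, and the 4 without it a median of -0.02 with 0 calls. In the 250 bases before the annotated start, TGTCTC or TGTCGG (both strands, motifs that share their first 4 letters) was present in 13 of 29 Aux/IAA genes (44.8%), 3 of 15 ARF genes (20%) and 1 of 6 receptor genes (16.7%). Of 27443 protein-coding genes 14.7% held either motif in the same window. The promoters of IAA5 and IAA19 are shown because they held the most matches among the members. They lie at chr1:5366498-5366747 (minus strand) and chr3:5263751-5264000 (plus strand), and capitals mark these motifs and the G-box core CACGTG on either strand.
IAA5: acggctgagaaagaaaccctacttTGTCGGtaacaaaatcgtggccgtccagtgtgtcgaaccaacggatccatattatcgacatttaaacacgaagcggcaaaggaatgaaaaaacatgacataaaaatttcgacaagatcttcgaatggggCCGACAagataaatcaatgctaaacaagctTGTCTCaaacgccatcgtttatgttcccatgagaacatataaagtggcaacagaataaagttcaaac
IAA19: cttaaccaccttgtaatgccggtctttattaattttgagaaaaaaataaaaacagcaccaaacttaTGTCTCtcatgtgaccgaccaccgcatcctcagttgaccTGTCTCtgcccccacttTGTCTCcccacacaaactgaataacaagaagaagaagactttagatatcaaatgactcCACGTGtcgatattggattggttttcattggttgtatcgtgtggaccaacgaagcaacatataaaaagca
IAA5 held 1 TGTCTC and 2 TGTCGG, and IAA19 held 3 TGTCTC and 1 CACGTG, which PIF and bZIP factors bind. Of the 17 members with TGTCTC or TGTCGG 0 were called, and of the 30 tested members without them 5 were called. With length offsets these counts were 1 and 6. Of all tested genes 23.5% were called, and 19.9% with length offsets. The split also follows family, since 4 of the 5 called members were ARF genes, of which 3 of 15 held either motif. Within the Aux/IAA genes 0 of 13 with either motif and 1 of 13 tested ones without were called. The 13 Aux/IAA genes with either motif had a median log2 fold change of -0.07, and the 13 tested ones without had 0.10.

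Of the 15 ARF genes 4 were called with edgeR (26.7%), close to the 23.5% of all tested genes. All 4 were in class B, the class of mostly repressing ARFs, but the classes called changed with the fit. DESeq2 also called ARF7 and ARF19 of class A. With length offsets ARF17 of class C was called and ARF2 was not. ARF11 (AT2G46530, chr2:19104632-19108486, plus strand) had 1592, 1095 and 1596 counts in the wild type and 868, 878 and 738 counts in bdh. Its lowest wild-type library, replicate 2, was still above every bdh library, and the level fell from 31.5 ± 5.88 CPM to 19.2 ± 1.96 CPM (SD, n = 3 each). The log2 fold change was -0.71 (SE 0.14, edgeR adjusted p 0.00847). It was past the threshold without each library in turn, and with length offsets it was -0.57 (edgeR adjusted p 0.00876).

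ARF9 (AT4G23980, chr4:12451143-12455369, plus strand), known to act in the suspensor of the embryo, had 1506, 1022 and 1334 counts in the wild type and 856, 832 and 666 counts in bdh. The groups did not overlap, and the level fell from 28.4 ± 5.13 to 18.2 ± 2.45 CPM (SD, n = 3 each). The log2 fold change was -0.64 (SE 0.15, edgeR adjusted p 0.0144), and -0.46 with length offsets (0.0193). Without wild-type replicate 1 it was -0.51 with an adjusted p of 0.0558, and without bdh replicate 1 it was -0.69 with 0.0505.

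ARF2 (AT5G62000, chr5:24910191-24915395, plus strand), a repressor known for roles in organ size, senescence and the apical hook, was the most abundant ARF transcript at 79.0 ± 13.4 CPM per kilobase in the wild type (SD, n = 3). It had 355, 252 and 311 CPM in the wild type and 210, 254 and 178 CPM in bdh. Wild-type replicate 2 and bdh replicate 2 lay side by side, so the groups overlapped. The log2 fold change was -0.51 (SE 0.15, edgeR adjusted p 0.0385). The call held in the fits without wild-type replicate 2 (-0.63, adjusted p 0.0144) and without bdh replicate 2 (-0.66, 0.0171). It was lost without wild-type replicate 1 (-0.39, 0.135), wild-type replicate 3 (-0.50, 0.0981), bdh replicate 1 (-0.49, 0.138) and bdh replicate 3 (-0.39, 0.111). With length offsets it was -0.27 with an edgeR adjusted p of 0.112.

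ARF4 (AT5G60450, chr5:24308255-24312784, minus strand), which with ARF3 sets the lower side of leaves, was the only member called higher. It had 2045, 2051 and 2247 counts in the wild type and 2723, 2529 and 2524 counts in bdh. The groups did not overlap, and the level rose from 46.8 ± 1.78 to 60.2 ± 1.82 CPM (SD, n = 3 each). The log2 fold change was 0.36 (SE 0.08, edgeR adjusted p 0.0131), 0.35 with an adjusted p of 0.0722 without bdh replicate 1, and 0.56 with length offsets (0.00238). Among the TAS3A targets, ARF4 was thus higher and ARF2 lower, while ARF3 (ETTIN) had 21.5, 21.6 and 17.2 CPM against 22.6, 20.8 and 23.0 CPM and was not called (0.14, edgeR adjusted p 0.381). The log2 ratio of ARF4 to ARF2 in CPM, a pair chosen after its values were seen, was -2.97, -2.44 and -2.67 in the wild type and -1.76, -2.08 and -1.61 in bdh.

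**Figure D3:**
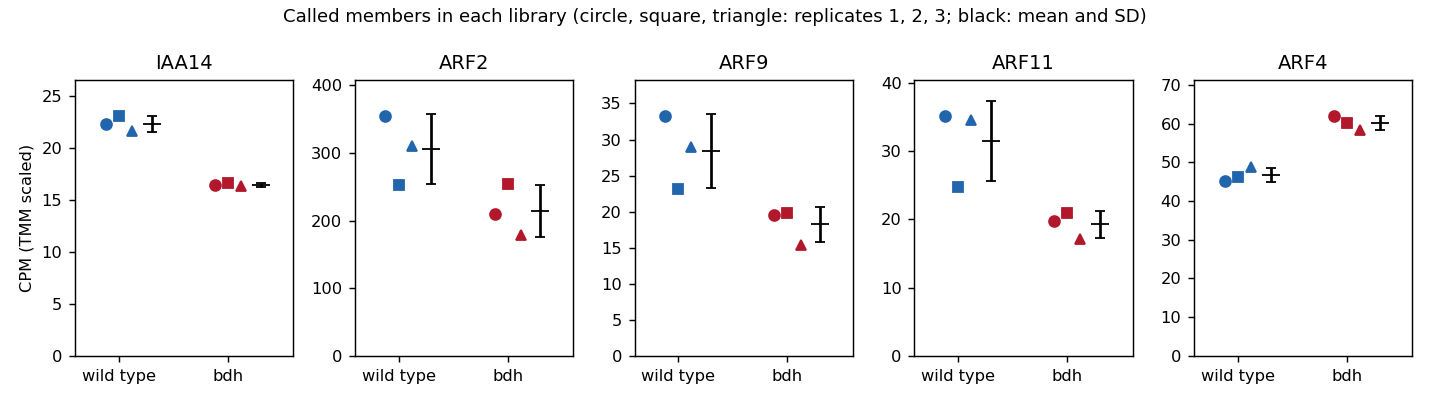
Level of the 5 called members in each library, in CPM from 0, with the group mean and SD. The groups are apart for IAA14, ARF4, ARF9 and ARF11 and overlap for ARF2, where replicate 2 of the genotypes had 252 and 254 CPM.

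ARF1, another class B repressor, had 81.2, 66.1 and 73.6 CPM in the wild type and 57.9, 63.9 and 56.8 CPM in bdh. Every bdh library was lower, and the log2 fold change was -0.31 (SE 0.10; adjusted p 0.0511 with edgeR), and -0.18 with length offsets (0.169). ARF1 overlaps a gene on the opposite strand. ARF18, the last of class B, had a log2 fold change of 0.16 (edgeR adjusted p 0.401). The class B median was -0.31 over 7 genes.

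The activating ARFs of class A had 0 of 5 called with edgeR, while DESeq2 called ARF7 and ARF19. The class A median log2 fold change was -0.33, beside -0.31 for class B. With length offsets these medians were -0.10 and -0.18. ARF6, which promotes hypocotyl elongation and is a target of miR167, had 126, 123 and 125 CPM in the wild type and 118, 115 and 106 CPM in bdh. The groups did not overlap, and the log2 fold change of -0.14 (SE 0.08; adjusted p 0.245 with edgeR) was 0.11 with length offsets. ARF7 (NPH4) had 82.1, 58.8 and 68.1 CPM against 54.2, 58.7 and 41.4 CPM and a log2 fold change of -0.44 (edgeR adjusted p 0.0609). Its close relative ARF19 had the same log2 fold change, -0.44 (0.0626), from 22.2, 16 and 17.2 CPM against 12.7, 16.2 and 12.1 CPM. Both were -0.17 with length offsets, and both overlap another gene. ARF5 (MONOPTEROS) was at -0.33 (edgeR adjusted p 0.251) and ARF8 at 0.06 (0.695). The log2 ratio of ARF7 to ARF19 was 1.92 ± 0.06 in the wild type and 1.91 ± 0.17 in bdh (SD, n = 3 each).

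The class C genes, all targets of miR160, were each on the higher side. ARF17 had 10.9, 9.81 and 11.3 CPM in the wild type and 14.4, 11.6 and 13.6 CPM in bdh, without overlap. Its log2 fold change was 0.31 (edgeR adjusted p 0.0888), and 0.48 with length offsets (0.0225). ARF10 (0.11) and ARF16 (0.03) had overlapping groups and were not called, and ARF16 took the other sign in 2 of 16 alternative fits.

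Over all 15 ARF genes the median log2 fold change was -0.14, and 8 had an unadjusted p under 0.05, beside 38.7% of all tested genes. The family sum was 920 ± 83.0 CPM in the wild type and 782 ± 69.5 CPM in bdh (SD, n = 3 each), from library sums of 1000, 834 and 926 CPM against 786, 850 and 711 CPM. Wild-type replicate 2 lay below bdh replicate 2, so the sums overlapped.

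Transcript length differed between the families and went with the log2 fold change over all genes. The median exonic length was 2998 bases for the ARF genes, 2585.5 for the receptors, 1355 for the Aux/IAA genes and 1758 for all tested genes with an annotated length. Across 16873 genes, which are not independent replicates, the log2 fold change had a Spearman correlation of -0.398 with exonic length. The median log2 fold change of all tested genes was 0.12 at over 1000 up to 1500 bases, -0.15 at over 2500 up to 3000 bases and -0.32 above 4000 bases. In these classes 6.02%, 17.5% and 33.4% of genes were called lower. Within groups the libraries also differed, since the correlation of a library's deviation with length was 0.444, 0.0969 and 0.314 for the wild type and -0.331, -0.0816 and -0.458 for bdh. Of the 15 ARF genes 10 had their lowest wild-type value in replicate 2 and 11 their lowest bdh value in replicate 3, a count made after the values were seen. For all tested genes the shares were 37.9% and 37.5%. Within the ARF family, ARF4, at 3267 bases, had a log2 fold change of 0.36 and ARF11, at 2721 bases, had -0.71. This pair was picked after its values were seen, and the part of length in either difference was not tested.

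With each library's length trend removed, 4130 genes were called (19.9%), and 7 members were among them, 5 lower (beside 9.76% of all tested genes) and 2 higher (beside 10.1%). IAA14, ARF4, ARF9 and ARF11 kept their call, ARF2 lost it, and IAA2, IAA5 and ARF17 gained it. The ARF median was then 0.11, the receptor median 0.09 and the Aux/IAA median -0.04, each of the other sign than before. The direction of a family median thus depended on this setting, whereas the directions of the 5 called members did not. Whether the length trend comes from the RNA, the libraries or the genotype was not tested.

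**Figure D4:**
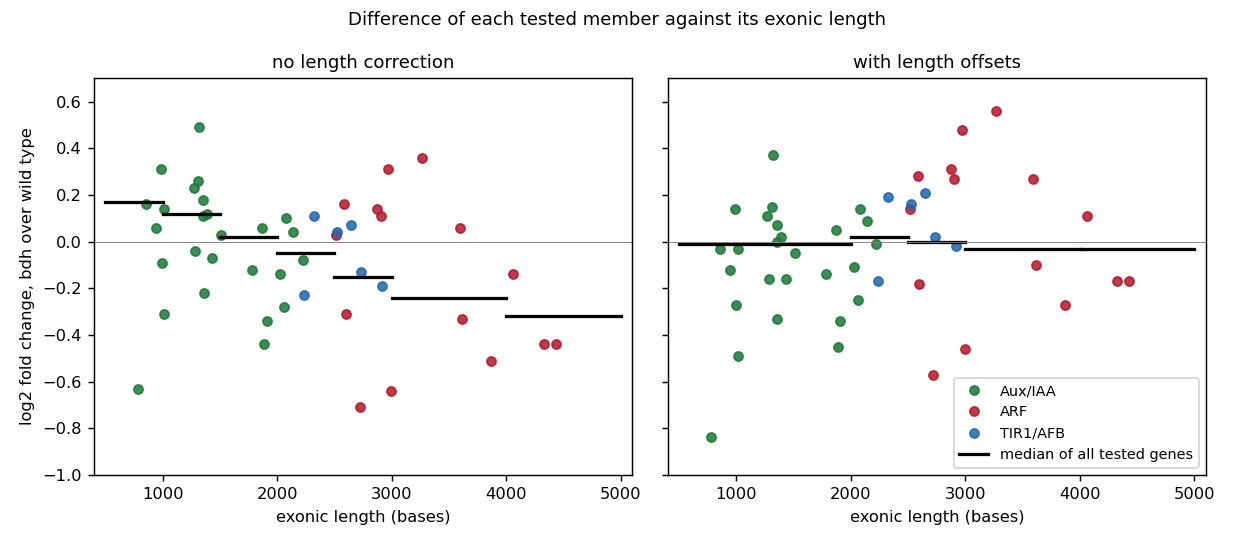
Log2 fold change (bdh over wild type) of each tested member against exonic length in bases, without (left) and with (right) length offsets, with black bars for the median of all tested genes in each length class; the outer classes are open-ended. The bars fall from 0.17 to -0.32 on the left and stay between -0.03 and 0.02 on the right, and most ARF points move up.

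Of the genes for proteins that work with these families, the corepressor genes TPL, TPR2 and TPR3 of the TOPLESS family were called lower in bdh. In a list of 15 partner genes 3 were called, all lower (11.3% of all tested genes were called lower), and the list's median log2 fold change was -0.20. TPR3 had 20.1, 19 and 19.8 CPM in the wild type and 10.1, 11.5 and 8.70 CPM in bdh. All bdh libraries were far below the wild type, and TPR3 fell by 0.96 on the log2 scale (SE 0.12, edgeR adjusted p 0.000951), and by 0.72 with length offsets (0.00100). TPR2 fell by 0.54 (edgeR adjusted p 0.0101) and TPL by 0.42 (0.0147), and with length offsets these were -0.29 (0.0394) and -0.15 (0.314). TPL also lost the call without bdh replicate 1 (-0.45, 0.0625) or wild-type replicate 1 (-0.35, 0.0552), TPR2 without bdh replicate 1 (-0.53, 0.0579), and TPL and TPR3 overlap genes on the opposite strand. TPR1 (-0.27) and TPR4 (-0.20) were not called, and with length offsets they were at -0.03 and 0.07. For all 5 genes every bdh library lay below every wild-type library, as for 20.5% of all tested genes. The TPL and TPR genes are long, and of all tested genes of over 3000 up to 4000 bases and above 4000 bases, 24.6% and 33.4% were called lower. Of the 10 genes for the SCF ubiquitin ligase and the RUB pathway that activates it, 0 were called and 6 had an unadjusted p under 0.05, beside 38.7% of all tested genes. These were ASK1 (0.30), RBX1 (0.37) and RCE1 (0.35), with a log2 fold change above 0, and ASK2 (-0.20), SGT1B (-0.26) and CUL1 (-0.22), below 0. With length offsets ASK2 (-0.37, edgeR adjusted p 0.0121) and SGT1B (-0.32, 0.0457) were called lower.

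Among the loci of the small RNAs above, 6 of 12 had enough counts to be tested, and only MIR160C was called, as lower (beside 11.3% of all tested genes). It had 158, 129 and 180 counts in the wild type and 99, 54 and 101 counts in bdh, without overlap, and fell by 0.81 on the log2 scale (SE 0.24, edgeR adjusted p 0.0369). With length offsets its log2 fold change was -0.72 (edgeR adjusted p 0.0306). The call was lost without wild-type replicate 1 (-0.80, 0.0977), wild-type replicate 3 (-0.71, 0.117), bdh replicate 1 (-0.92, 0.0760) or bdh replicate 2 (-0.58, 0.0651). These polyadenylated RNA libraries count primary transcripts, and the mature microRNAs were not measured. MIR160A (-0.60) and MIR160B (-0.38) were not called. TAS3A had 467, 622 and 645 counts against 407, 346 and 487 counts, with overlap, a log2 fold change of -0.41 and an edgeR adjusted p of 0.0813, and -0.59 with length offsets (0.0113).

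Possible targets of the auxin response were read from a list of 14 genes outside the families. Whether auxin induces each of them, GH3.9 and GH3.17 included, was not tested. Of the 13 tested, 6 were called, beside 23.5% of all tested genes, with 5 lower (11.3%) and 1 higher (12.1%). The median log2 fold change was -0.26, and with length offsets 3 were called, all lower. GH3 genes encode enzymes that conjugate auxin to amino acids, and all 7 tested had a log2 fold change below 0, although GH3.17 was at 0.12 with length offsets. GH3.5 had 330, 299 and 276 CPM in the wild type and 162, 158 and 185 CPM in bdh. The groups were far apart, and GH3.5 fell by 0.84 on the log2 scale (SE 0.11, edgeR adjusted p 0.00105), and by 0.75 with length offsets (0.00135). GH3.1 fell by 0.76 (SE 0.16, edgeR adjusted p 0.00960), from 6.41, 6.51 and 5.16 CPM to 3.19, 3.47 and 4.03 CPM, and without bdh replicate 1 its adjusted p was 0.0554. GH3.9 had 11, 12 and 14 counts against 2, 4 and 4, near the floor of 3 counts, so that its log2 fold change of -1.78 (edgeR adjusted p 0.0325) is uncertain, and it was not called in any of the 6 fits that left out a library. LBD29, a direct target of ARF7 and ARF19 in lateral root formation, had 116, 200 and 149 counts against 80, 62 and 102. Its groups did not overlap, and the log2 fold change was -0.86 (SE 0.25; adjusted p 0.0351 with edgeR), and -1.04 with length offsets (0.0105). The call was lost without wild-type replicate 2 (-0.61, 0.0911), wild-type replicate 3 (-0.91, 0.0725), bdh replicate 1 (-0.84, 0.118) or bdh replicate 2 (-0.72, 0.0825). ARGOS, an auxin-induced regulator of organ size named after its values were seen, was the 1 called higher (0.44, edgeR adjusted p 0.0347), and was at 0.27 with length offsets (0.0963). Without wild-type replicate 1 or 3 or bdh replicate 1 or 3 it was not called, with an adjusted p of at least 0.0863.

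**Figure D5:**
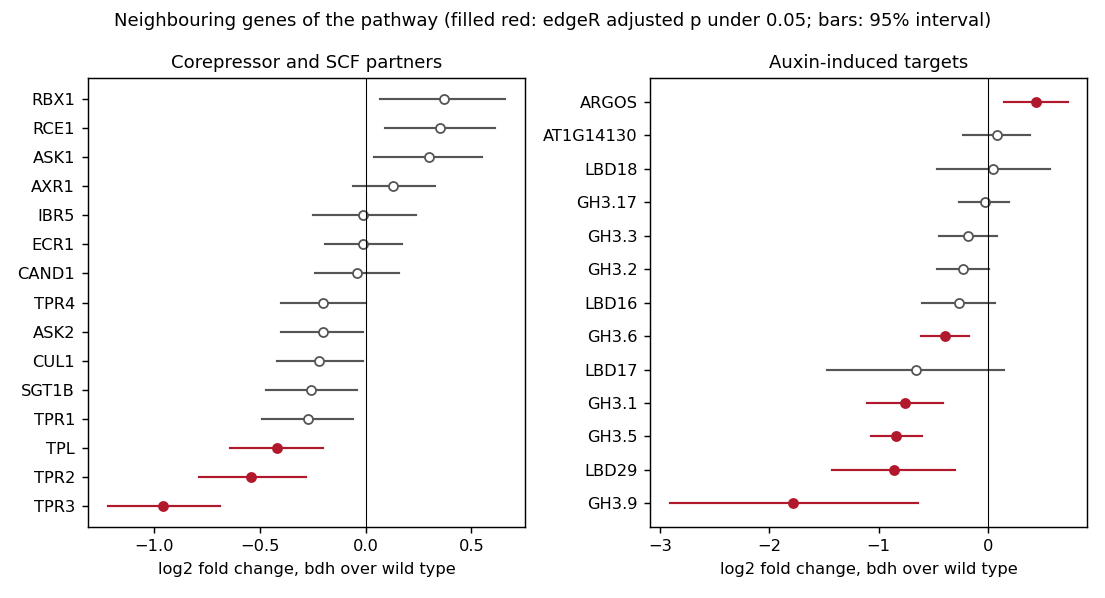
Log2 fold change (bdh over wild type) with its 95% interval for the tested genes of the partner list (left) and the target list (right); filled points mark adjusted p under 0.05. Called are 3 corepressor genes, all below 0, and 6 genes of the target list, of which ARGOS lies above 0 and 5 lie below.

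The authors' deposited table held 48 of the members, 11 of them with an adjusted p under 0.05, beside 24% of its genes. They included the 5 called above, and IAA7, IAA8, IAA17, ARF1, ARF7 and ARF19, whose edgeR adjusted p lay between 0.0511 and 0.0654. DESeq2 run here on the deposited counts also called 11 members, beside 25.1% of the genes it tested. In the authors' deposited table the log2 fold change was -0.66 for ARF11, -0.58 for ARF9, -0.45 for ARF2, -0.42 for IAA14, 0.34 for ARF4 and 0.41 for IAA17. DESeq2 run here gave -0.72, -0.65, -0.52, -0.45, 0.36 and 0.48 in the same order. The deposited values were thus smaller in size, and may not be the same measure as those given here. Why they differ was not tested. All these analyses used the same libraries.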

How the data were processed

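Strand-specific libraries of polyadenylated RNA were made for the DNBSEQ platform, per the labels' protocols. For each of 6 libraries the authors deposited counts per gene as whole numbers, unnormalized and unpooled. A table of the authors' own comparison was also deposited. Per the file headers it holds a mean of normalized counts (a signal), a log2 fold change, its standard error, a p-value and an adjusted p-value. The submitters' processing notes name STAR 2.7.10b, featureCounts, Subread 2.0.3, DESeq2 1.38 and TAIR10. Whether counting used strand is not given in the sources used here, and 16 members overlap exons of another gene (14 on the opposite strand, 2 on the same). None had a copy elsewhere of at least 100 bases at 95% identity (blastn 2.17.0+).

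The counts were compared in R 4.3.3 with edgeR 4.0.16: filterByExpr, TMM factors, glmQLFit and glmQLFTest, all 6 libraries, no covariate, Benjamini-Hochberg adjustment over all 20791 tested genes, two-sided, threshold 0.05. Standard errors come from the F statistic and are approximate. Of the values from 1 to 20 counts, 74.8% were even, so precision may be lower than the counts imply. No pair of libraries agreed within sampling noise (chi-square per degree of freedom at least 15.2). Lengths, names and sequences came from RefSeq's TAIR10.1, which is not shown to be the annotation the authors counted with. Motifs were searched in the 250 bases before each annotated start, and pairing stretches by fewest mismatches. Length offsets were per-library splines with 4 degrees of freedom, fitted to genes whose mean log2 CPM exceeded 1.

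Members and lists were chosen with earlier results of these data known. Named were every called member, per family the 3 highest levels per kilobase and the 3 largest absolute log2 fold changes, untested members, and per list at most the 4 called genes with the largest change; other genes with values were named after these were seen. The alternatives were other scalings (RLE, upper quartile), DESeq2 1.42.0, filters, a replicate block, length and GC offsets, halved counts, each library left out, a test against a fold change of 1.5 and a threshold of 0.01.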

Additional observations from a re-analysis of the deposited data

How the results depend on the processing

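Of 288 alternative values of the 16 members named by the rule, 243 kept their direction and side of the threshold, 23 lost the call, 13 gained it and 9 changed sign. The sign changes were those of IAA19 (-0.03 with length offsets, -0.05 with length and GC offsets, -0.03 with length offsets and the replicate block), ARF6 (0.11, 0.14 and 0.11) and AFB2 (0.02, 0.00 and 0.01). In the same order, the family medians were -0.04, -0.06 and -0.04 for Aux/IAA, 0.11, 0.14 and 0.11 for ARF and 0.09, 0.09 and 0.09 for TIR1/AFB genes. Leaving out each library in turn, they ran from 0.00 to 0.06, from -0.17 to -0.09 and from -0.09 to 0.02.

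The 4882 genes called became 431 when tested against a fold change of 1.5, 1649 at a threshold of 0.01 and 1811 to 5558 without 1 library. The 5 members became 0, 2 and 1 to 10 under these settings, 11 with DESeq2 and 8 with length and GC offsets. The 1 member left without bdh replicate 1 was ARF11. The 3 partners became 0, 1 and 1 to 7, and 6 with DESeq2. The 6 targets became 0, 2 and 1 to 4, and 3 with length offsets, with or without GC content.

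No pairing by replicate number was seen: the correlation of deviations between same-numbered libraries was 0.0469, -0.281 and -0.168. Not every library correlated best with its own number. Deviations were taken from the group mean, so these correlations are tied to each other. They cannot tell whether same-numbered samples were handled together. With the replicate block 2090 genes, 2 members (ARF9 and ARF11) and 2 targets were called. With length offsets and the replicate block these counts were 2075, 3 and 2, and 1 partner was called. The cause of these shifts was not tested. Depth left IAA15, IAA31 and IAA33 untested, with at most 6 counts in any library.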
